A study of Mus musculus with 6 samples.

Results

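Prm1, Prm2, Prm3, Tnp1 and Tnp2 encode protamines, a protamine-like protein (Prm3) and the transition proteins of the mouse. They were taken by name among the gene-detecting probes of the array, and 5 genes were named of the 27376 gene names the array holds. Probes were found for 4 of them: 3 for Prm1 and 1 each for Prm2, Tnp1 and Tnp2. Prm3 matched 0 probes by name, synonym or accession and was not analysed here. The 4 measured genes belong to the 19398 genes that were tested.

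Total RNA came from the whole testis of 6 male mice aged 6 to 8 weeks, all of a mixed 129Sv/C57BL/6 background. Of these, 3 were wild type (WT) and 3 carried a Prss54 knockout (Prss54KO), with 1 array per mouse. The study asked which testis transcripts differ when Prss54, a gene of the serine protease family, is disrupted. How the allele was made, which part of the gene it removes and whether the mice shared litters are not given in the sources used here. The limma p-values and intervals rest on the spread between these 3 mice per genotype, moderated by the spread of all tested genes or probes. That spread also holds differences between slides, since the mice of a genotype were not all on the same slide.

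In the nuclei of elongating spermatids, most histones are replaced first by the transition proteins and then by the protamines, small basic proteins that pack the DNA of the sperm head. Their genes are transcribed in round spermatids, and the mRNAs are stored as inactive particles for days before they are translated. In bulk testis RNA, fewer spermatids and less RNA per spermatid cannot be told apart.

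The proteins are known for their unusual composition, and 2 of the array's probes were picked to show it. The probe sequences are printed because every value below rests on such a 60-base stretch. The reading frame is not given in the files. Capitals in the Prm1 probe mark arginine codons read from the third base, 12 of 19 codons, beside 4 for cysteine. Capitals in the Tnp2 probe mark cysteine codons read from the first base, 5 of 20 codons, beside 3 for histidine and 4 for serine. Neither frame holds a stop codon, but this does not single them out. The Prm1 probe holds 0 stop codons in every frame, and the Tnp2 probe also holds 0 when read from the second base. The frames were chosen because they hold these codons.
Prm1: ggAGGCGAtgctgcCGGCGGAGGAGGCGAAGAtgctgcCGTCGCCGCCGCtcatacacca
Tnp2: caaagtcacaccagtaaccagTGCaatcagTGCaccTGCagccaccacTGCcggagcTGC

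The files place Prm1, Prm2 and Tnp2 together on the minus strand of chromosome 16 (build mm9), with their probes spread over 8177 bases from position 10788572 to 10796748. The printed Prm1 probe spans chr16:10796597-10796748, a stretch of 152 bases of which 92 are not in the probe, so its match to the genome is split. It is called the junction probe here. The other Prm1 probes lie at chr16:10796526-10796585 (middle) and chr16:10796450-10796509 (distal). The Prm2 probe lies at chr16:10791549-10791608 and the Tnp2 probe at chr16:10788572-10788631. Tnp1 stands apart on chromosome 1, with its probe at chr1:73061834-73061893 on the minus strand. The annotation used here gives no exons of this build, so whether a probe lies in coding or untranslated sequence is not stated.

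In the RefSeq order of genes (assembly GRCm38.p6) the cluster reads Socs1, Tnp2, Prm3, Prm2, Prm1, Rmi2. By the brightness of their probes, the flanking genes Socs1 and Rmi2 ranked 9523 and 17290 of the 19398 genes. The 3 measured genes of the cluster ranked 3 (Prm1), 4 (Prm2) and 13 (Tnp2). Brightness also depends on the probe, so these ranks describe the array and are not a comparison of expression. Socs1 encodes a suppressor of cytokine signalling and Rmi2 a subunit of a complex that resolves DNA recombination intermediates. To show what stands before these clustered genes and Tnp1, the 110 bases before the start of each measured gene are printed below from RefSeq (GRCm38.p6, minus strand in all 4). They lie at chr16:10796824-10796933 for Prm1, chr16:10792106-10792215 for Prm2, chr1:73015900-73016009 for Tnp1 and chr16:10788656-10788765 for Tnp2. Capitals mark matches to TATAA and to TGANNTCA, a loose form of the cyclic AMP response element, each searched on both strands.
Prm1: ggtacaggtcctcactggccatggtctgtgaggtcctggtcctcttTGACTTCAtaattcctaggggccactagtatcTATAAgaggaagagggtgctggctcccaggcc
Prm2: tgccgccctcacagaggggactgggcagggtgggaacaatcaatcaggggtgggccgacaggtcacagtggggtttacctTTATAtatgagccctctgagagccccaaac
Tnp1: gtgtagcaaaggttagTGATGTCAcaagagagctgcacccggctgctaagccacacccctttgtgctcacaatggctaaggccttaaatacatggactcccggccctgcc
Tnp2: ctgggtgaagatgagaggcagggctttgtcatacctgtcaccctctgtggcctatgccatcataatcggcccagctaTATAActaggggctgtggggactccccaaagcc

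TATAA matched in Prm1, Prm2 and Tnp2, the genes of the cluster that were measured, at 32, 30 and 33 bases before the start. The match in Prm2 is on the reverse strand. It occurred in 3 of the 5 named genes and in 10.94% of the 32851 RefSeq promoter windows of that length. TGANNTCA matched in Prm1, Prm3 and Tnp1, again 3 of 5, against 6.755% of all windows, and was chosen after the sequences were seen. TGACG, a half-site of the same element, matched in 0 of the 5 windows and in 11.1% of all. These matches describe letters and do not show that a factor binds there.

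The knockout label was first checked at Prss54. Its processed signal was 22677, 24153 and 26120 in the WT mice and 7381, 9466 and 8416 in the Prss54KO mice, so the genotypes did not overlap. The log2 difference was -1.56 (SE 0.10, limma adjusted p = 0.0714). Whether the probe lies in the deleted part is not known here, and a residual signal therefore says nothing about the allele. Median signals of the 6 arrays lay between 203.1 and 219.7, and 66.2% to 74.8% of gene spots were well above background. WT replicates 1 and 2 shared slide 3, WT replicate 3 and Prss54KO replicates 1 and 2 shared slide 2, and Prss54KO replicate 3 was alone on slide 1, so that this mouse and its slide cannot be told apart. Of the markers of tissue that dissection can carry along, 4 of 5 epididymis genes (Lcn5, Lcn8, Crisp1 and Adam7) were not well above background on any array. The remaining one, Defb41, was well above background on all 6 arrays. So were all 3 red blood cell genes and 2 of 4 adipocyte genes. All 6 spermatocyte and all 6 round spermatid markers were well above background on all 6 arrays.

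The protamines and transition proteins were among the brightest genes of every mouse. Levels are given as the log2 of the processed signal over the array's 75th percentile. Tnp1, whose product is the more abundant transition protein, ranked 2, 1 and 2 of 19398 in the WT mice and 1, 1 and 2 in the Prss54KO mice. Prm1 ranked 4, 2 and 3 in WT and 3, 2 and 4 in Prss54KO, by its junction probe. Prm2, whose product is made as a longer precursor that is then cleaved, ranked 3, 3 and 4 in WT and 4, 4 and 3 in Prss54KO. These 3 genes and the ribosomal RNA entry Rn18s filled ranks 1 to 4 in every mouse. Tnp2 followed at ranks 13, 12 and 11 in WT and 12, 15 and 18 in Prss54KO. A rank describes the brightness of a probe, which also depends on its sequence and on where it lies in the transcript.

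By mean level over the 6 arrays the order was Tnp1 (8.24), Rn18s (8.19), Prm1 (8.14), Prm2 (8.12) and then Ptprz1 (7.97), Ubb (7.68), Odf2 (7.66), Smcp (7.59), Dkkl1 (7.54) and Ldhc (7.46). Tnp2 stood 13th at 7.30. Odf2 encodes an outer dense fibre protein of the sperm tail, Smcp a cysteine-rich protein of the sperm mitochondrial capsule and Ldhc the testis form of lactate dehydrogenase. The first 4 changed places between mice, so their order is not fixed beyond the spread of the mice. The 6 spots of the 4 genes held 1.197% to 1.294% of an array's summed gene signal in WT and 1.223% to 1.279% in Prss54KO, ranges that overlapped.

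**Figure D1:**
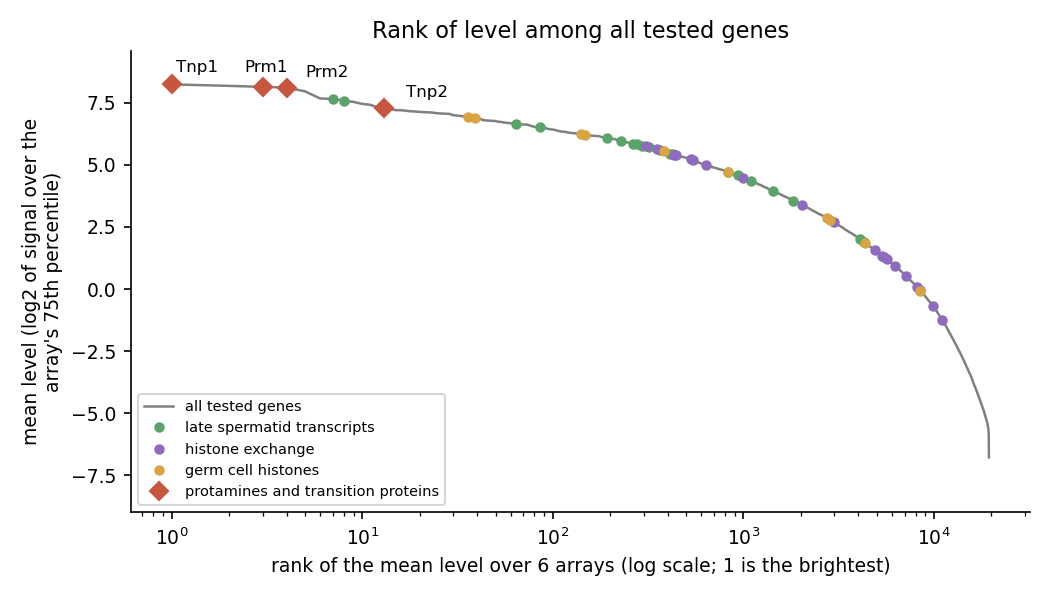
Mean level over the 6 arrays (vertical axis, log2 of signal over the array's 75th percentile) against rank (horizontal axis, log scale, 1 brightest) for the 19398 tested genes. Diamonds mark Tnp1, Prm1, Prm2 and Tnp2 at mean ranks 1, 3, 4 and 13, above nearly all late spermatid, histone exchange and germ cell histone genes (coloured points).

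At these levels the scanner's range matters, and it was not exceeded. The saturation values given in the files ran from 628437 to 639023, and the brightest spot of the 4 genes, Prm2 in Prss54KO replicate 2, reached 81.2% of it. There were 0 saturated pixels in the spots of these genes. All of them came from the lower-gain scan, scaled up by the extraction software. These marks concern the scanner alone. Whether brightness still rose in proportion to RNA at these levels was not tested, so differences between mice could be understated.

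None of the 4 measured genes differed between the genotypes beyond the spread of the mice. Of the 19398 genes tested, 0 (0%) passed a limma adjusted p of 0.05, 640 (3.3%) had an unadjusted p under 0.05 and 1495 (7.71%) did not overlap between genotypes. Among Prm1, Prm2, Tnp1 and Tnp2 the counts were 0, 0 and 0. The adjusted p was 0.9999 for each, by limma with Benjamini-Hochberg adjustment. The exact permutation test of 3 against 3 can go no lower than 0.1.

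Transition protein 1, Tnp1, was the steadiest. Its levels were 8.22, 8.19 and 8.27 in WT and 8.28, 8.26 and 8.25 in Prss54KO. The 6 mice lay within 0.09 log2 of each other, and the genotypes overlapped. Prss54KO minus WT was 0.043 (SE 0.049, 95% interval -0.076 to 0.16; exact p = 0.3), a fold of 1.03 with an interval of 0.949 to 1.12. Its SD within genotypes, 0.0297, was smaller than that of all but 3.08% of the genes and all but 3% of the 100 brightest.

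Transition protein 2, Tnp2, was the most variable of the 4. It stood at 7.29, 7.27 and 7.41 in WT and at 7.41, 7.30 and 7.10 in Prss54KO. Prss54KO replicate 3 was the lowest of the 6 mice, while Prss54KO replicate 1 lay level with the highest WT mouse. The difference was -0.056 (SE 0.093, 95% interval -0.28 to 0.17; exact p = 0.8), a fold of 0.962 with an interval of 0.822 to 1.13. Without Prss54KO replicate 3 the difference was 0.029. The SD within genotypes was 0.123, larger than that of 59.2% of all genes and of 67% of the 100 brightest.

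Protamine 2, Prm2, had levels of 8.18, 8.07 and 8.07 in WT and 8.10, 8.15 and 8.13 in Prss54KO. The Prss54KO mice all lay inside the WT range. Their difference was 0.020 (SE 0.055, 95% interval -0.11 to 0.16; exact p = 0.8), a fold of 1.01 with an interval of 0.923 to 1.11. The SD within genotypes was 0.0502, with 15.04% of genes smaller.

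Protamine 1, Prm1, read 8.16, 8.11 and 8.19 in WT and 8.13, 8.24 and 8.03 in Prss54KO at the junction probe. The highest and the lowest mouse were both Prss54KO. Prss54KO minus WT was -0.015 (SE 0.069, 95% interval -0.18 to 0.15; exact p = 0.9), a fold of 0.990 with an interval of 0.881 to 1.11. The SD within genotypes was 0.0796, with 36.0% of genes smaller.

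These intervals were widest for Tnp2, from 0.822-fold to 1.13-fold, and narrowest for Tnp1. Differences inside an interval are not excluded by these 3 mice per genotype. Across all tested genes the median difference was 0.0064, and in 89.4% of genes its size was under 0.2 (log2). The median of the 4 measured genes was 0.0028, with 2 higher and 2 lower.

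**Figure D2:**
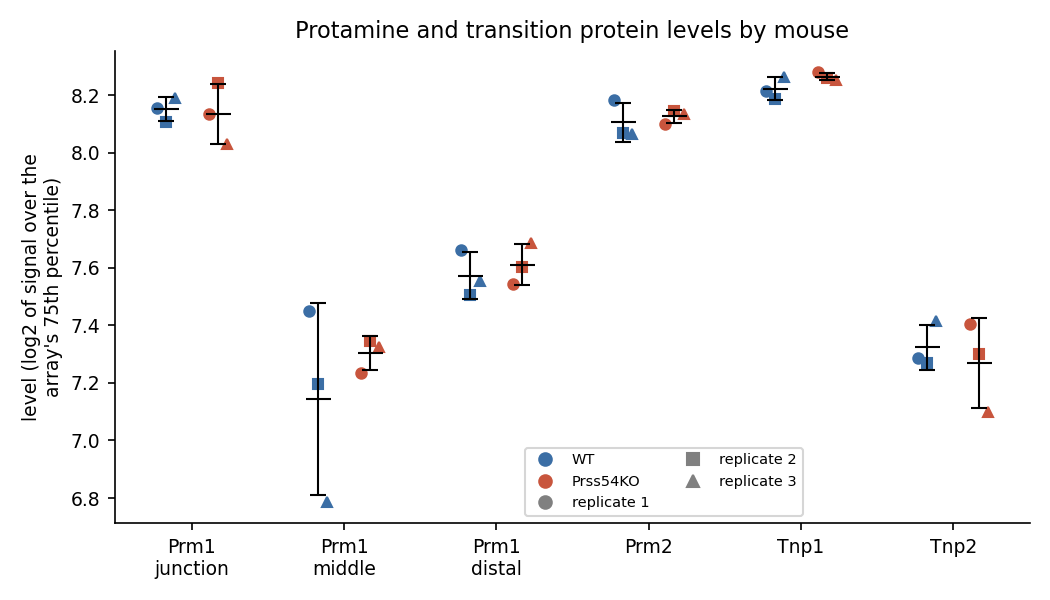
Level (vertical axis, log2 of signal over the array's 75th percentile) of each probe of Prm1, Prm2, Tnp1 and Tnp2, 1 point per mouse (WT blue, Prss54KO red, marker shape for replicate), with the mean and SD of 3 mice in black. The genotypes overlap at all 6 probes, and the middle Prm1 probe of WT replicate 3 lies lowest, at 6.79.

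The junction probe of Prm1 did not move with the gene's other probes from mouse to mouse. The distal probe read 7.66, 7.50 and 7.55 in WT and 7.54, 7.60 and 7.69 in Prss54KO, a difference of 0.038 (SE 0.068, 95% interval -0.13 to 0.20). The middle probe read 7.45, 7.20 and 6.79 in WT and 7.24, 7.35 and 7.33 in Prss54KO, a difference of 0.16 (SE 0.16, 95% interval -0.24 to 0.56). The WT mice were spread at the middle probe, from WT replicate 1 at the top to WT replicate 3, whose value ranked 56 among 28923 probes against 13 to 22 on the other arrays. The spot was not marked as an outlier. Within that array the middle probe lay 0.77 below the distal one, against 0.21 to 0.36 below on the other 5.

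Slide 2 holds WT replicate 3 and Prss54KO replicates 1 and 2. On it the middle probe differed by 0.50, a value set by that 1 WT array, since the Prss54KO mice of the slide lay within the range of the mice on the other slides. Over all 6 arrays its difference was -0.021 without WT replicate 3 and 0.31 without WT replicate 1. On slide 2 the junction probe of Prm1 differed by -0.0016, Prm2 by 0.057, Tnp1 by 0.0060 and Tnp2 by -0.061. With a single WT array on that slide, these are differences from 1 mouse and no p is given.

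**Figure D3:**
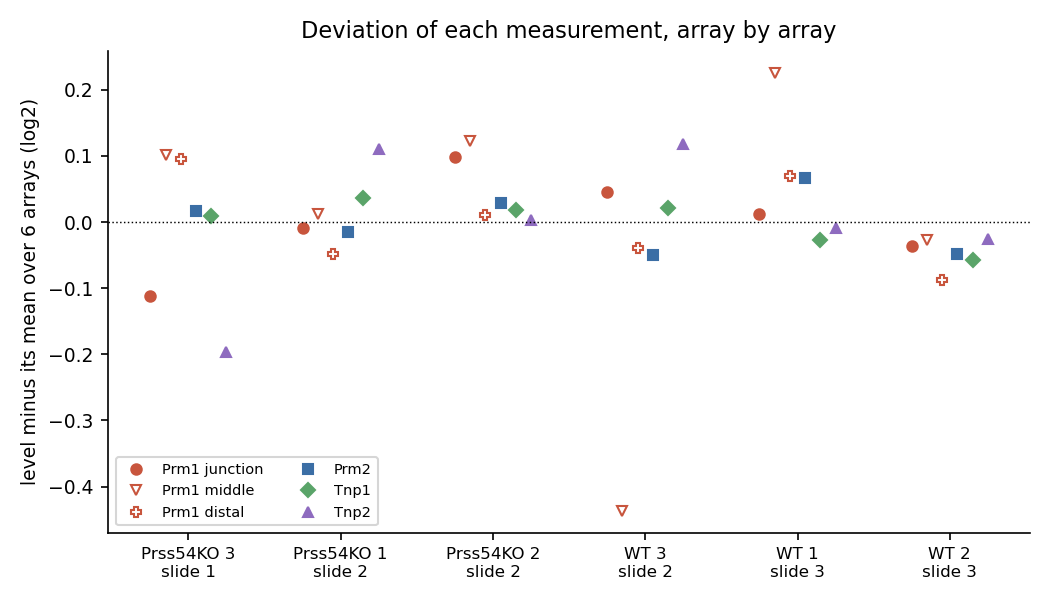
Deviation of each measurement from its mean over the 6 arrays (vertical axis, log2), with the arrays ordered by slide (horizontal axis). Prss54KO replicate 3 has the lowest Prm1 junction and Tnp2 values, and WT replicate 3 has the lowest Prm1 middle value.

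Differences between 2 of the genes within 1 array need no scaling between arrays, and their shift between genotypes was compared for all 6 pairs. The exact p-values were 0.4 to 0.8, and 0.72 to 0.8 after adjustment over the pairs. The largest shift was in Tnp1 minus Tnp2, which was 0.93, 0.92 and 0.85 in WT and 0.87, 0.96 and 1.15 in Prss54KO. The value of Prss54KO replicate 3 stood above the rest, and the mean shift was 0.098 (exact p = 0.4). Prm1 was taken at its junction probe in these pairs, and its middle and distal probes were not compared with the other genes in this way. Such a value is a difference in brightness between unlike probes. For Prm1 minus Prm2, the within-array values were -0.03, 0.04 and 0.12 in WT and 0.03, 0.10 and -0.10 in Prss54KO. Their shift was -0.035 (exact p = 0.6), and the genotypes overlapped.

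The 6 arrays allow only a description of how the probes co-varied, since all values of an array share its scaling. Prm1 at the junction probe and Tnp2 had r = 0.67 (Spearman 0.71), and Tnp1 and Tnp2 had r = 0.31 (Spearman 0.77). With Tnp2, the other Prm1 probes went the opposite way, at r = -0.66 for the distal and -0.54 for the middle one. Prm2 and Tnp2 had r = -0.39. The distal Prm1 probe followed Prm2 at r = 0.82 (Spearman 0.66), and the middle probe followed Prm2 at r = 0.81 (Spearman 1), whereas the junction probe and Prm2 had r = 0.085. The distal and middle probes of Prm1 had r = 0.55 (Spearman 0.66). The junction probe had r = -0.27 with the distal and -0.19 with the middle one. All these coefficients rest on small differences between arrays.

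The genes whose profile over the 6 arrays was most like the mean of the 4 were Cypt9 (r = 0.995), Eef1g (r = 0.993), Tbc1d21 (r = 0.992), Tmem184c (r = 0.989) and Cldnd2 (r = 0.988). They were the closest of 10026 genes with an SD of at least 0.1 over the arrays. Picked as the highest over only 6 arrays, these r are high by selection and are no test. Cypt9 belongs to a family of cysteine-rich proteins of the perinuclear theca, and Eef1g encodes a translation elongation factor subunit. The mean profile itself ran from -0.07 in Prss54KO replicate 3 to 0.04 in Prss54KO replicate 2. It was not shared by all 4 genes. In Prss54KO replicate 3, Tnp2 and Prm1 at the junction probe deviated by -0.20 and -0.11, but Prm2 and Tnp1 by 0.017 and 0.0099.

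Genes that act around the protamines were read from 5 lists. Of the 20 histone exchange genes, 10 were higher and 10 lower in Prss54KO, 0 passed the adjusted threshold and the median difference was 0.0019. Psme4, the proteasome activator that acts on acetylated histones and the brightest of the list, ranked 307 and differed by 0.0060 (SE 0.053). Top2b, a topoisomerase, was 1.16, 1.18 and 1.16 in WT and 1.23, 1.19 and 1.31 in Prss54KO. It was the 1 gene of the 20 without overlap, against 7.71% of all tested genes, with a difference of 0.078 (SE 0.052). Dot1l, a histone H3 methyltransferase, differed by 0.30 with an SE of 0.23, and Ipo4, an importin, by 0.089 with an SE of 0.072.

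The germ cell histones listed are histone variants present in spermatocytes and spermatids. Of 10 genes, 6 were higher and 4 lower, 0 passed and the median difference was 0.0093. H1fnt, a linker histone of spermatids, ranked 36 and differed by -0.023 (SE 0.13). H2afz, a variant of histone H2A, differed by 0.14 (SE 0.087) with overlap. Hist1h2ba, the testis H2B variant, differed by 0.099 (SE 0.065). Hist1h2aa, the testis H2A variant, was 6.21, 6.08 and 6.23 in WT and 6.24, 6.29 and 6.23 in Prss54KO. It was the 1 gene of the 10 without overlap, against 7.71% of all tested genes. Its lowest Prss54KO and highest WT mouse were alike to 2 decimals.

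Transcription regulators of the haploid phase include Crem, which drives protamine and transition protein transcription. Among 14 genes, 8 were higher and 6 lower, 0 passed and 0 were without overlap, with a median of 0.0059. Tbpl1, a TATA-binding protein relative and the brightest of these at rank 267, differed by 0.063 (SE 0.062). Taf7l, a TFIID subunit of germ cells, differed by -0.13 (SE 0.078), and Kif17, a kinesin that carries a Crem co-activator, by 0.20 (SE 0.14). Rfx4, a winged-helix transcription factor, differed by -0.069 (SE 0.063).

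The stored protamine mRNAs are bound by proteins that delay their translation. Of 15 genes for mRNA storage and its control, 8 were higher and 7 lower, 0 passed and the median was 0.0061. Pabpc1, the poly(A)-binding protein, ranked 43 and differed by 0.051 (SE 0.075). Elavl1, an RNA-stabilising protein, was 2.39, 2.47 and 2.46 in WT and 2.51, 2.51 and 2.50 in Prss54KO, a difference of 0.068 (SE 0.048). It was the 1 gene of the 15 without overlap, against 7.71% of all tested genes. Paip2b, a repressor of poly(A)-binding protein, differed by -0.080 (SE 0.065), and Papolb, the testis poly(A) polymerase, by 0.080 (SE 0.078).

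**Figure D4:**
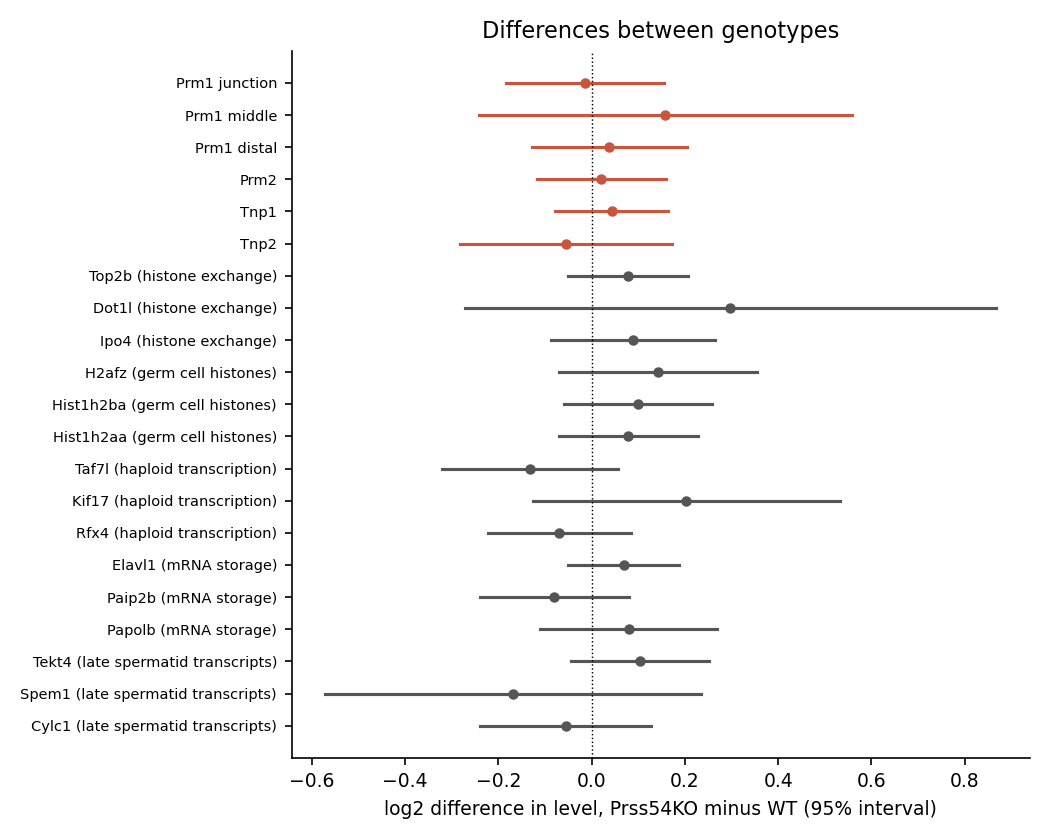
Prss54KO minus WT difference in level (horizontal axis, log2) with 95% intervals from limma for the probes of Prm1, Prm2, Tnp1 and Tnp2 (red) and 3 genes from each list (grey). Every interval includes 0, and the widest is that of Dot1l, from -0.27 to 0.87.

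Other transcripts of elongating spermatids formed the last list, and when in development each is made was not measured here. Of 20 genes, 8 were higher and 12 lower in Prss54KO, 0 passed the adjusted threshold, 0 had an unadjusted p under 0.05 and 0 were without overlap. The median was -0.019. Odf2, the brightest at rank 7, differed by 0.037 (SE 0.073), Tekt4, a tektin of the flagellum, by 0.10 (SE 0.061) and Cylc1, a protein of the perinuclear theca, by -0.056 (SE 0.075). Spem1, which acts in the removal of spermatid cytoplasm, was 5.74, 5.90 and 5.95 in WT and 5.90, 5.86 and 5.32 in Prss54KO, a difference of -0.17 (SE 0.17). Prss54KO replicate 3 stood below the other 5 mice for Spem1.

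The same mouse was the lowest of the 6 for 16 of the 20 late spermatid transcripts (80%), against 3790 of 19397 genes (19.5%), a contrast noticed after the values were seen. Prm1 at the junction probe and Tnp2 were also lowest in it, 2 of the 4 measured genes, while Tnp1 and Prm2 were not. For Prm1 this rests on the junction probe alone. The distal and middle Prm1 probes lay above their means over the arrays in that mouse, by 0.095 and 0.10. Centred on each gene's mean, the median of the late spermatid list was -0.045, -0.053 and 0.14 in WT and 0.11, 0.080 and -0.18 in Prss54KO. Mice of each genotype lay on both sides of 0, but the sign followed the slide. The mice of slide 2 (WT replicate 3, Prss54KO replicates 1 and 2) lay above 0, and those of slides 1 and 3 below. Tnp2 split the same way, and the other probes of the 4 measured genes did not. The part of the slide in this was not tested. The list's median difference was 0.074 without Prss54KO replicate 3, 0.018 without WT replicate 3 and 0.014 with array weights, each of the opposite sign to the value from all 6 arrays. In the other lists Prss54KO replicate 3 was lowest for 6 of 20 histone exchange genes, 2 of 10 germ cell histones, 6 of 14 haploid transcription genes and 5 of 15 mRNA storage genes.

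Marker levels of other stages are given beside this, as summed linear levels. Round spermatid markers summed to 113 to 120 in WT and to 111 to 130 in Prss54KO, with 117 in Prss54KO replicate 3. Spermatocyte markers summed to 19.02 to 20.35 in WT and 18.9 to 20.7 in Prss54KO, highest in Prss54KO replicate 3. Spermatogonial markers summed to 15.8 to 17.8 in WT and 14.7 to 17.2 in Prss54KO, lowest in that mouse, and Sertoli cell markers to 72.0 to 77.5 and 74.1 to 77.4. The ranges of the genotypes overlapped for each of these 4 lists. Of the epididymis genes, Defb41 alone was tested. Its linear level was 0.219 to 0.235 in WT and 0.250 to 0.271 in Prss54KO. The genotypes did not overlap, as in 7.71% of all tested genes. Endothelial cell markers summed to 2.92 to 3.05 in WT and 2.68 to 3.16 in Prss54KO, lowest in Prss54KO replicate 3. Red blood cell genes summed to 8.50 to 21.4 in WT and 8.94 to 11.8 in Prss54KO. Adipocyte genes summed to 1.91 to 2.88 in WT and 2.50 to 3.04 in Prss54KO. Over the 6 arrays, which share their scaling, the summed levels followed the mean profile of the 4 genes at r = 0.88 for endothelial cell markers, 0.76 for spermatogonia, 0.61 for Leydig cells, 0.50 for red blood cells, 0.41 for Sertoli cells and 0.30 for round spermatids. They had r = -0.80 for spermatocytes, -0.72 for peritubular cells, -0.37 for Defb41, -0.21 for macrophages and -0.018 for adipocytes. These r describe 6 arrays, and beyond them the part of the markers in the protamine and transition protein values was not tested.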

How the data were processed

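RNA of 6 mice was hybridised to 1-colour (Cy3) Agilent mouse arrays. The deposited scanner files hold spot intensity on a linear scale, written by Feature Extraction 10.7.3.1 per the file headers and 10.7 per the submitters' processing notes. Per the file headers, that signal is background-treated within the array, bright spots come from a lower-gain scan, probe positions are those of mm9, and other columns hold marks (such as well above background, saturated and outlier). A series-wide table of log2 values, also deposited, has a median of 7.72 in every column and follows each array at r of 0.999 or more. It served as an alternative only; what software produced it is not stated in those sources.

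Processed signals were divided by the 75th percentile of their array and put on the log2 scale. Outlier-marked gene spots (86 to 142 per array) were left out, replicate spots were averaged, probes had to exceed background clearly on 3 or more of 6 arrays (28923 did), and the brightest probe stood for a gene (19398). All 6 probes of the 4 measured genes passed this filter. Limma 3.58.1 in R 4.3.3 (lmFit, eBayes, two-sided, Benjamini-Hochberg over all genes or all probes, threshold 0.05) compared the genotypes. Single values were also compared by a two-sided exact permutation test. Intervals are 95%. Of the code, the limma fit alone was tested on simulated data. With 3 arrays per genotype the number of arrays limits the precision.

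The genes and lists were chosen with earlier results of these data known. Of 79 list entries, 72 were found by name and 7 through RefSeq; of 53 markers, 52 matched. Names in the text follow a rule: all probes of the named genes, the 3 genes of smallest unadjusted p and the brightest of each list, the 5 most similar profiles, the genes ranked 1 to 10 and Prss54. Socs1 and Rmi2 are named as neighbours. Symbols follow the array design. Alternatives tried were scaling by quantiles or the median, normexp with an offset of 50, other filters, the mean of probes, the authors' table, slide and replicate blocks, slide 2 alone, array weights, an intensity trend with robust variance, and each array left out.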

Additional observations from a re-analysis of the deposited data

How the results depend on the processing

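Under 19 alternatives, Prm1, Prm2, Tnp1 and Tnp2 never passed an adjusted p of 0.05 (limma; lowest values 0.985, 0.957, 0.920 and 0.913). Tnp1 stayed above 0, and the sign of the others turned as follows. Prm2 was -0.0241 with quantile normalization and -0.0204 in the authors' table. Prm1 was 0.0605 with the mean of its probes, 0.00873 with array weights and 0.00451 without WT replicate 3. Leaving out single arrays gave -0.0675 to 0.0371 for Prm1 (highest without Prss54KO replicate 3), 0.000356 to 0.0592 for Prm2, 0.0245 to 0.0638 for Tnp1 and -0.125 to 0.0289 for Tnp2, the last positive only without Prss54KO replicate 3. The middle Prm1 probe gave -0.0207 without WT replicate 3 and up to 0.311 with another array left out. The count of genes past the threshold was 0 with each array left out, 1 with normexp, 2 with a filter on all 6 arrays, 1 with the slide as a fixed block and 2 with an intensity trend and robust variance, none of them a protamine or transition protein gene. The causes were not tested. With the replicate number as a block, the differences were -0.0148 for Prm1, 0.0204 for Prm2, 0.0427 for Tnp1 and -0.0555 for Tnp2 (adjusted p = 0.9999), with 0 genes past the threshold. Same-numbered mice deviated with r of -0.037, 0.024 and -0.16, so the numbers were not taken as pairs. With normexp, the median rank was 2 for Prm1, 1 for Prm2 and 2.5 for Tnp1. The median of the late spermatid list ranged from -0.070 to 0.074 over the alternatives.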
